A study of Bos taurus with 22 samples.

Results

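The casein × GLP-2 interaction asks whether casein infusion shifted the mRNA expression of a gene by another amount in steers given glucagon-like peptide 2 (GLP-2) than in steers given vehicle. The 9 loci described here had leading interaction values in the jejunal mucosa, out of 27570 genes in the count table, of which 21855 had at least 1 count and 15086 were tested for the interaction. They were selected on their interaction values in these same counts, so those values and the treatment differences behind them are given as a description, without a test. All 9 passed the filter on low counts for the interaction, which keeps a gene that is expressed in only 1 treatment.

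The samples were mucosal scrapings from the jejunum of 22 Holstein steers of 220 to 294.1 kg body weight. Every steer received raw corn starch into the abomasum at 3.94 g per kg body weight per day for 7 d, the controls included. The control steers (n = 5) received water with the starch and injections of the vehicle, a solution of bovine serum albumin (BSA). The GLP-2 steers (n = 5) received water and 100 µg GLP-2 per kg per day, the casein steers (n = 6) received sodium caseinate at 1.3 g per kg per day and vehicle, and the casein + GLP-2 steers (n = 6) received both. Deposited counts per library ranged from 8809666 to 28447810. A scraping holds epithelium with immune and muscle cells, so fewer cells of a type and less RNA per cell cannot be told apart in these data. All 12 enterocyte markers looked for were detected, among them the brush border enzymes lactase and sucrase-isomaltase, while the summed CPM (counts relative to the TMM-adjusted depth of a library) of 9 B cell follicle markers ran from 17.9 to 2011 in the 11 steers given vehicle and from 14.8 to 54.0 in the 11 given GLP-2.

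GLP-2 is a peptide of intestinal endocrine cells that promotes growth of the intestinal mucosa, and casein supplies the small intestine with amino acids. The loci fall into several functional classes. The cytochrome P450 3A enzymes oxidize drugs and steroids, the alpha class glutathione S-transferases conjugate glutathione to reactive lipids and toxins, and the secreted group II phospholipases A2 cleave bacterial membrane phospholipids. A T cell receptor beta variable segment forms part of the receptor of a T cell clone and is expressed only after it has been joined to the rest of the receptor gene. Such gene families can differ between animals in copy number and sequence.

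Among the 15086 genes, 0 passed an adjusted p of 0.05 for the interaction in edgeR (0.0%, quasi-likelihood fit, Benjamini-Hochberg), and the unadjusted p was 0.05 or less for 645 (4.28%). Ranked by that p, the 9 loci held ranks 1 to 5, 7, 8, 11 and 12. The last locus inside the choice was ENSBTAG00000053373 with a fitted interaction of 7.49 on the log2 scale, and the next gene outside it was SOCS1, an inhibitor of cytokine signaling, at 1.25. GBP2 (1.82), ENSBTAG00000053238 (1.77) and PGLYRP2 (3.29) ranked higher but were not among the 9. In the casein steers ENSBTAG00000053373 was at 0 throughout, so that its fitted value is no measure of size, and it ran from 1.25 to 7.92 under other processing. ENSBTAG00000019994, at -1.24, had a fitted value no larger than that of SOCS1. Their fitted interactions were positive for 3 loci and negative for 6.

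A locus was counted as on or off between steers when at least 2 of the 22 steers had 30 or more counts and at least 2 had 3 or fewer, without regard to treatment. By this rule 2 of the 9 loci, ENSBTAG00000054260 and ENSBTAG00000039559, were on in some steers and off in others, beside 7.49% of the genes with at least 1 count and 10.0% of the genes tested for the interaction. The other 7 loci fell into different patterns. ENSBTAG00000013039 and ENSBTAG00000019994 were detected above 30 counts in all 22 steers. ENSBTAG00000026400 was low in 20 steers and high in 2, and ENSBTAG00000006546 had counts from 0 to 3824 with 1 steer far above the rest. NKPD1 was detected in every steer, PXT1 was at or below 25 counts throughout, and ENSBTAG00000053373 passed 30 counts in 1 steer.

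**Figure D1:**
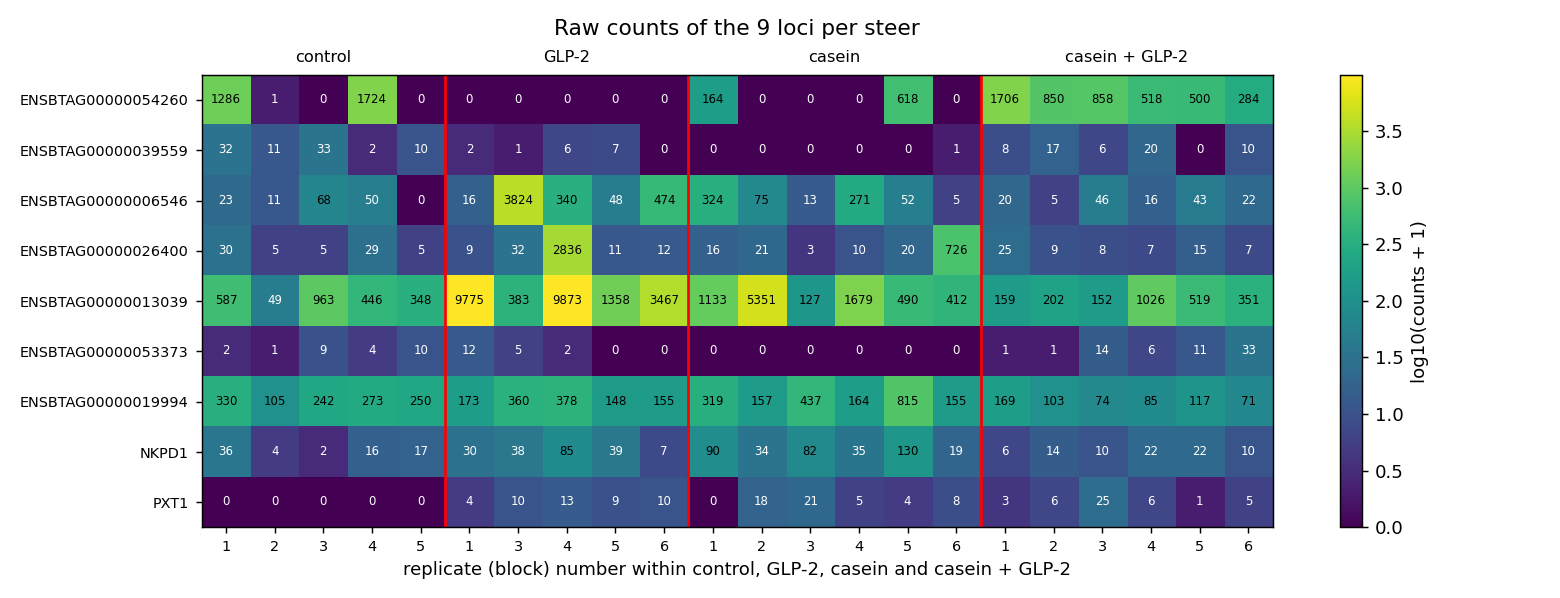
Raw counts of the 9 loci (vertical) in each of the 22 steers (horizontal, ordered by treatment and replicate), with color on a log10(counts + 1) scale. ENSBTAG00000054260 reads either 0 or 1 in 12 steers or 164 to 1724 in the other 10, and ENSBTAG00000026400 exceeds 32 counts in 2 steers.

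ENSBTAG00000054260 is described in the count table as cytochrome P450 CYP3A24, a protein-coding gene on chromosome 25 (ARS-UCD1.2, chr25:36710741-36759920, minus strand). Its counts were 1286, 1, 0, 1724 and 0 in the control steers and 0 in each of the 5 GLP-2 steers. They were 164, 0, 0, 0, 618 and 0 in the casein steers and 1706, 850, 858, 518, 500 and 284 in the casein + GLP-2 steers. The locus was thus on in 2 of 5 control, 0 of 5 GLP-2, 2 of 6 casein and 6 of 6 casein + GLP-2 steers. No steer had a count between 1 and 164. The casein + GLP-2 steers lay above all GLP-2 steers, a pattern that 0.159% of the 15086 genes showed, and above all casein steers (0.51%). Control and casein steers overlapped. In CPM the casein + GLP-2 steers averaged 62.0 ± 32.0 (SD, n = 6), the control steers 32.3 ± 45.7 (n = 5) and the casein steers 6.55 ± 10.8 (n = 6).

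Because all GLP-2 steers were at 0, differences from that group are bounds. A floor of 3 counts over the GLP-2 group was set against the observed pooled level of each other group. That level was 1829-fold the floor in the casein + GLP-2 group, 1134-fold in the control group and 268-fold in the casein group. These bounds cover the counting error of the group at 0 only, not that of the other group or the spread between steers. The difference in mean log2 CPM (prior count 2) between casein + GLP-2 and casein was 6.29 ± 1.75 (SE). With 4 of the 6 casein steers at 0, its size depends on the prior count. That SE pools unlike SDs of log2 CPM: 0 in GLP-2, 0.68 in casein + GLP-2, 3.66 in casein and 4.89 in control steers. It is therefore no measure of the spread in these 2 treatments alone. The control mean rested on 2 steers.

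The locus is 1 of 4 CYP3A family genes on chromosome 25, and the other 3 were detected in every steer. In the 12 steers where ENSBTAG00000054260 had 0 or 1 count, ENSBTAG00000049666 (CYP3A5) had 50 to 3317 counts, ENSBTAG00000052665 had 227 to 10528 and ENSBTAG00000053645 (CYP3A5) had 18 to 287. Library totals of those 12 steers ran from 9003688 to 28447810 and so included the deepest library. Control replicates 1 and 4, both on, had totals of 20655744 and 18993730, against 11490049 to 12091162 in the other controls. Casein replicate 5, also on, had the deepest casein library (23666186), but casein + GLP-2 replicate 6, on too, had the shallowest of all (8809666). With the treatment means removed, the locus had a Pearson r of 0.58 with log2 library total. The part of depth was not tested. Of the summed FPKM of the 4 genes, which corrects for gene length, ENSBTAG00000054260 held 8.76 to 22.8% in the casein + GLP-2 steers and up to 20.7% in control and 72.5% in casein steers. The 72.5% belonged to a steer in which ENSBTAG00000052665 had only 25 counts. Over the 22 steers its log2 CPM had a Pearson r of 0.52 with the nearest copy, ENSBTAG00000053645 (Spearman 0.67), 0.28 with ENSBTAG00000049666 and 0.17 with ENSBTAG00000052665. All 3 copies had fitted interactions above 0, of 2.47, 1.61 and 1.95 on the log2 scale in that order. The sequence identity of these genes was not measured here, and how the counting treated reads that match more than 1 of them is not known, so the level of each single gene is uncertain.

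**Figure D2:**
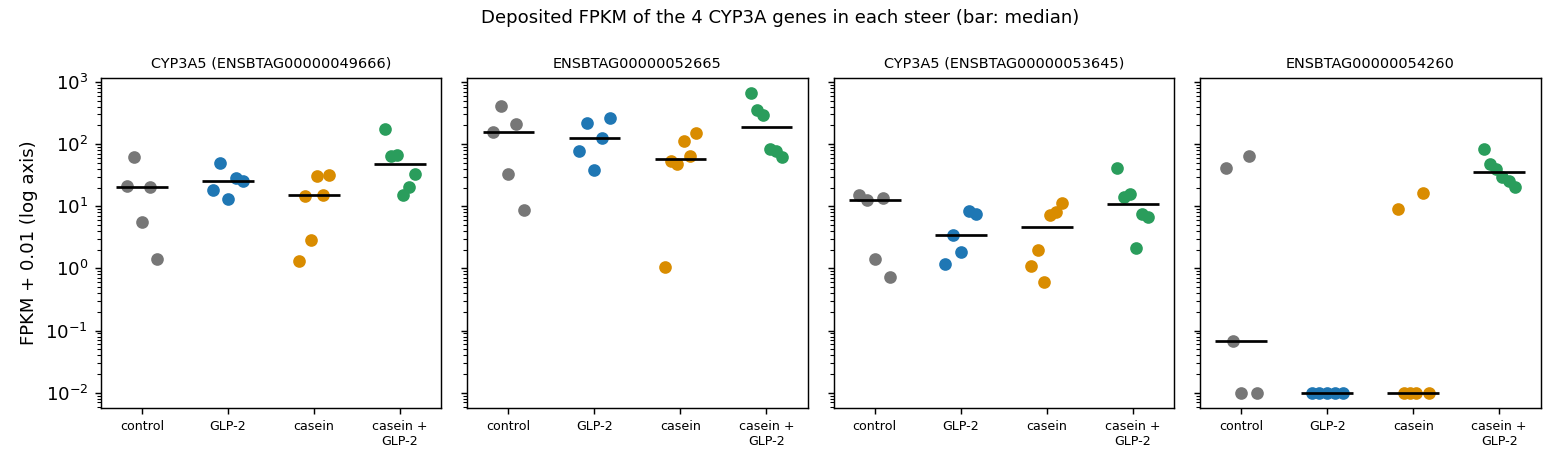
Deposited FPKM (plus 0.01, log axis) of the 4 CYP3A genes of chromosome 25 in each steer by treatment, 1 point per steer and a bar at the median. ENSBTAG00000054260 separates into steers near 0 and steers at 9.06 FPKM or more, whereas the other 3 genes are detected in all 22 steers.

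ENSBTAG00000006546 is described as glutathione S-transferase A2 and lies on chromosome 23 (chr23:25074938-25088616, minus strand). Counts were 23, 11, 68, 50 and 0 in control, 16, 3824, 340, 48 and 474 in GLP-2, 324, 75, 13, 271, 52 and 5 in casein, and 20, 5, 46, 16, 43 and 22 in casein + GLP-2 steers. GLP-2 replicate 3 alone, at 158.5 CPM, held 52.6% of the CPM summed over 22 steers, and the next steer stood at 36.2 CPM. Control and casein + GLP-2 steers were low, while GLP-2 and casein steers ranged widely, and no pair of treatments that share a factor was free of overlap. Mean log2 CPM was higher by 3.47 ± 1.30 (SE) in GLP-2 than in control and lower in casein + GLP-2 than in GLP-2 (-2.90 ± 1.24).

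Of 6 GSTA genes on this stretch of chromosome 23, GSTA1 had the most counts, 110672 over all steers. GSTA1 averaged 573 CPM in GLP-2, 244 in control, 379 in casein and 234 in casein + GLP-2 steers. The order of its means placed GLP-2 and casein above the other treatments, but the medians did not place casein above control. The median was 237.0 CPM in casein steers, which ran from 49.9 to 991.6 CPM, and 301.4 CPM in control steers. The fitted interaction of GSTA1 was -1.93 on the log2 scale, and its log2 CPM had a Pearson r of 0.66 with ENSBTAG00000006546 (Spearman 0.70, n = 22). Among the 6 genes ENSBTAG00000006546 supplied 0.697 to 24.6% of the summed FPKM in GLP-2 steers and at most 2.97% in casein + GLP-2 steers. A gene with a similar log2 CPM was ARFIP2, which binds small GTPases of the ARF family (Pearson r = 0.79, Spearman 0.73). Without the 2 steers farthest from its median, r with ARFIP2 was 0.74. Genes named here and below for their likeness were among the 2 highest of 15415 genes for a locus, and no p is given.

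ENSBTAG00000013039 is described as a membrane associated phospholipase A2 (chr2:132738657-132741687, plus strand). The locus was never off, with counts of 587, 49, 963, 446 and 348 in control and 9775, 383, 9873, 1358 and 3467 in GLP-2 steers. Casein steers had 1133, 5351, 127, 1679, 490 and 412 counts, and casein + GLP-2 steers 159, 202, 152, 1026, 519 and 351. In FPKM the median was 606 with GLP-2, 158 with casein, 63.1 in control and 64.4 with casein + GLP-2. GLP-2 replicate 3 lay among the control values, so that GLP-2 and control overlapped through 1 steer. Mean log2 CPM differed by 2.93 ± 1.15 (SE) between GLP-2 and control, by 1.43 ± 1.10 between casein and control and by 0.17 ± 1.10 between casein + GLP-2 and control.

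A pair of neighbors annotated PLA2G2A lies 47.9 kb (ENSBTAG00000002700) and 24.7 kb (ENSBTAG00000005759) away. Of all genes compared, ENSBTAG00000002700 was the most similar to ENSBTAG00000013039, with a Pearson r of 0.93, a Spearman rho of 0.95 and an r of 0.90 without the 2 steers farthest from the median. Next came MPTX, a mucosal pentraxin (r = 0.90). The summed FPKM of the 3 phospholipase genes came from ENSBTAG00000013039 by 28.1 to 38.4% in GLP-2 steers and by 5.14 to 18.2% in control steers. Values of 4.22 to 33.4% in casein and 10.7 to 27.7% in casein + GLP-2 steers covered a wider range. The fitted interactions of ENSBTAG00000002700 (-2.93), ENSBTAG00000005759 (-2.18) and PLA2G2C (-2.08) had the same sign as that of ENSBTAG00000013039 (-5.42). PLA2G5, PLA2G2D5 and 2 unnamed genes of the cluster had values of the other sign, between 0.98 and 1.69 on the log2 scale. Whether reads are shared between these genes was not tested.

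**Figure D3:**
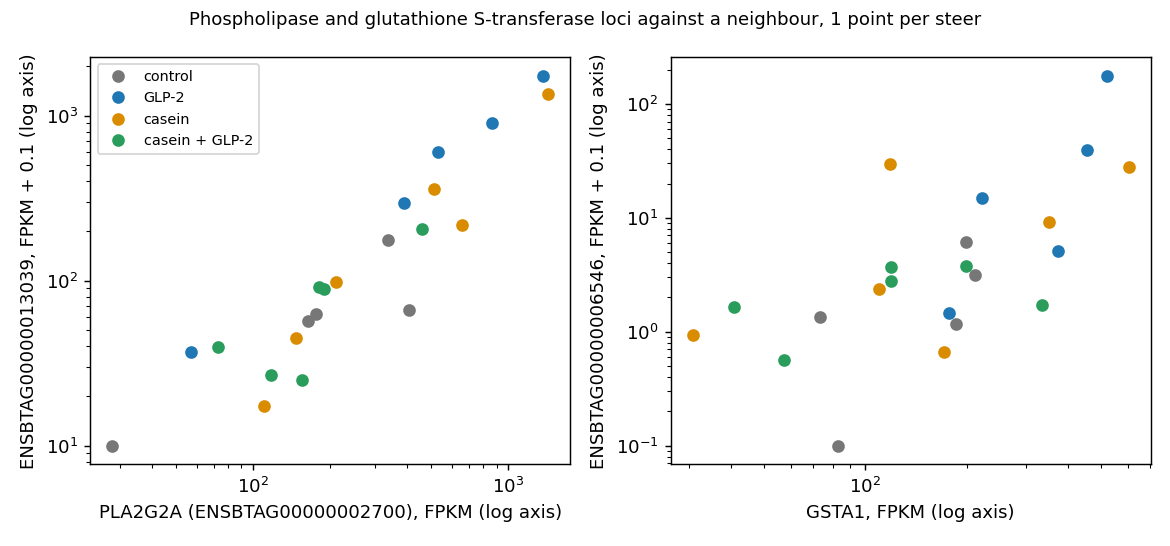
Deposited FPKM (log axes) of ENSBTAG00000013039 against PLA2G2A (ENSBTAG00000002700) on the left and of ENSBTAG00000006546 against GSTA1 on the right, 1 point per steer colored by treatment. Points of the phospholipase pair lie close to a line over the whole range (Pearson r of log2 CPM 0.93), and those of the transferase pair scatter more (0.66).

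ENSBTAG00000039559 has no description, carries a V-set (immunoglobulin-like variable) domain in the table and lies on chromosome 4 (chr4:105721902-105722630, plus strand) among 16 other V-set genes within 100 kb, 1 of them named TRBV15. Its 166 counts in all were split as 32, 11, 33, 2 and 10 in control, 2, 1, 6, 7 and 0 in GLP-2, 0, 0, 0, 0, 0 and 1 in casein, and 8, 17, 6, 20, 0 and 10 in casein + GLP-2 steers. Casein steers lay below all control steers, which 0.113% of genes showed, and the other treatments overlapped. No steer passed 2.59 CPM, and the on-off call rested on control replicates 1 and 3, since leaving out either ended it.

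The summed CPM of the 16 neighboring V-set genes was 11.2 ± 2.80 (SD) in control, 7.35 ± 1.89 in GLP-2, 9.05 ± 5.89 in casein and 10.2 ± 3.14 in casein + GLP-2 steers, and the treatments overlapped. Within 100 kb, 7 genes were tested for the interaction, 4 had a value above 0 as ENSBTAG00000039559 did, and 0 reached an unadjusted p of 0.05. The neighbor with the highest Pearson r with the locus (0.61) was ENSBTAG00000048904, 29.5 kb away, with 67 counts. Its means were 0.731 ± 0.998 CPM (SD) in control, 0.0804 ± 0.132 in GLP-2, 0.0157 ± 0.0384 in casein and 0.192 ± 0.261 in casein + GLP-2. Other neighbors ran differently, such as ENSBTAG00000053458 (r = -0.27) and ENSBTAG00000049231 (means of 0.0200 CPM in control and 0.323 in casein). The score of 7 T cell markers, such as the CD3 chains, had a Pearson r of 0.29 with ENSBTAG00000039559 (Spearman 0.28), and no T cell marker was called in any contrast.

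NKPD1 (ENSBTAG00000020074, chr18:52806769-52817013, minus strand) encodes a protein with a KAP family P-loop NTPase domain and overlaps TRAPPC6A on the same strand. Its counts were 36, 4, 2, 16 and 17 in control, 30, 38, 85, 39 and 7 in GLP-2, 90, 34, 82, 35, 130 and 19 in casein, and 6, 14, 10, 22, 22 and 10 in casein + GLP-2 steers. Every casein steer, at 2.00 to 7.48 CPM, was above every control steer (0.192% of genes) and above every casein + GLP-2 steer (0.504%). Mean log2 CPM was 2.34 ± 0.53 (SE) higher in casein than in control and differed by -1.81 ± 0.51 between casein + GLP-2 and casein. The gene with the most similar profile was CFL2, a muscle cofilin that severs actin filaments (Pearson r = 0.81, Spearman 0.80). KIDINS220, the other KAP family gene looked up, was higher with GLP-2 than with BSA by 0.46 ± 0.14 on the log2 scale (edgeR, adjusted p = 0.0335).

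PXT1 (ENSBTAG00000053750, chr23:10341272-10360192, minus strand), named for a peroxisomal protein enriched in testis, had 148 counts in all. All 5 control steers were at 0. Counts were 4, 10, 13, 9 and 10 in GLP-2, 0, 18, 21, 5, 4 and 8 in casein, and 3, 6, 25, 6, 1 and 5 in casein + GLP-2 steers. GLP-2 steers lay above all controls without overlap (0.888% of genes). The observed pooled level was 13.6-fold the floor of 3 counts over the control group in GLP-2, 17.0-fold in casein and 15.8-fold in casein + GLP-2 steers. These ratios leave out the counting error of the 3 treatments. These 3 treatments overlapped throughout, with mean levels of 0.581 to 0.785 CPM. A count of 0 in a single control library allowed a level of up to 0.265 CPM (3 counts). EIF2AK4, a kinase that senses amino acid shortage, had the most similar profile (Pearson r = 0.82, Spearman 0.81). Of 31 peroxisome genes tested, 3 rose with GLP-2 against BSA (among them PEX13 and ACOX2), 0 fell and 28 did not pass, beside 5.13% of all genes that rose. The list median was 0.46 on the log2 scale and that of all genes 0.0079.

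ENSBTAG00000053373 lies on an unplaced scaffold (NKLS02001494.1:256179-263860, plus strand), has no description and no gene within 100 kb. Its 111 counts were 2, 1, 9, 4 and 10 in control, 12, 5, 2, 0 and 0 in GLP-2, 0 in each of the 6 casein and 1, 1, 14, 6, 11 and 33 in casein + GLP-2 steers. Casein steers lay below all control steers (0.113% of genes) and below all casein + GLP-2 steers (0.51%). The lowest steer of each of these treatments had 1 count. The observed pooled level was 24.9-fold the floor over the casein group in casein + GLP-2 and 9.53-fold in control steers. The counting error of the casein + GLP-2 and control groups is left out of these ratios. Casein + GLP-2 replicate 6 held 39.9% of the summed CPM.

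ENSBTAG00000026400 is a pseudogene on chromosome 25 (chr25:3378007-3378979, plus strand) without a description. Only GLP-2 replicate 4, with 2836 counts (116.5 CPM), and casein replicate 6, with 726 (76.6 CPM), were high, and together they held 90.7% of the summed CPM. The remaining 20 steers had 3 to 32 counts. Over 25% of the summed CPM lay in 1 steer for 4 of the 9 loci, beside 2.6% of genes. Of the 15086 genes, 0.119% had more than 50% of their CPM in 1 steer, and ENSBTAG00000026400 and ENSBTAG00000006546 were among them. Both high steers belonged to treatments that enter the interaction with the same sign. The neighbors ADCY9 and TFAP4 were at 8.63 and 13.1 CPM in GLP-2 replicate 4 and at 12.2 and 9.81 CPM in casein replicate 6, within their ranges of 2.15 to 19.7 and 5.55 to 18.6 CPM over the other 20 steers. Median CPM of the pseudogene was 0.441 in control, 1.07 in GLP-2, 1.13 in casein and 0.791 in casein + GLP-2 steers. Without these 2 steers, an alternative chosen after seeing the data, edgeR called 0 genes for the interaction, and the locus differed by -0.04 on the log2 scale between GLP-2 and BSA (adjusted p = 0.955).

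**Figure D4:**
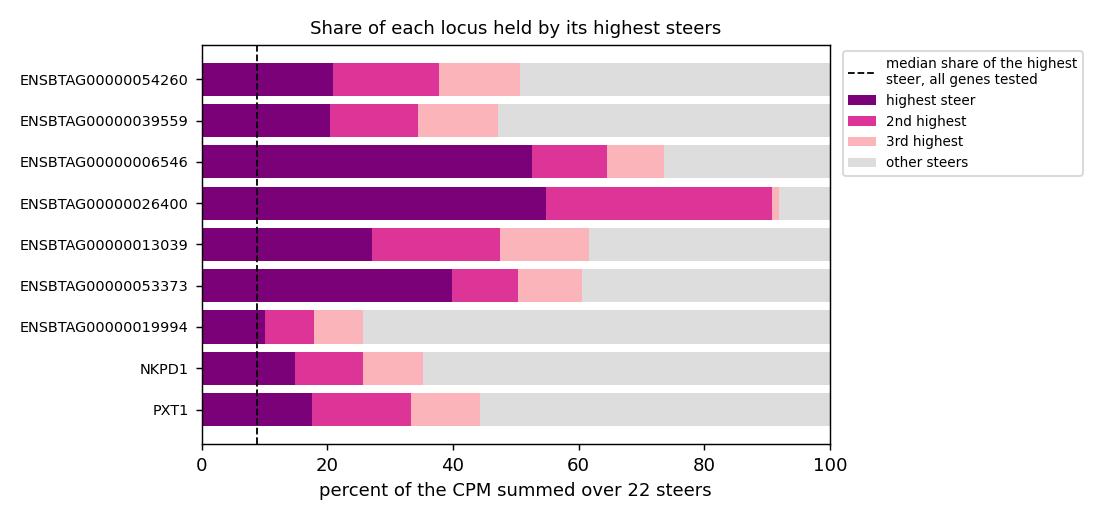
Percent of the CPM summed over 22 steers (horizontal) that came from the highest, the next 2 and the remaining 19 steers for each of the 9 loci (vertical). The highest steer held 54.8% of ENSBTAG00000026400 and 52.6% of ENSBTAG00000006546 but 10.1% of ENSBTAG00000019994, and the dashed line marks the median of the highest steer over 15086 genes, 8.77%.

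ENSBTAG00000019994 (chr2:91270021-91271660, minus strand) is a protein-coding gene without a description, placed inside CARF on the opposite strand. It had 71 to 815 counts and was never off. Its CPM values were 16.5, 9.26, 19.0, 15.4 and 19.4 in control, 13.8, 14.9, 15.5, 14.4 and 11.8 in GLP-2, 26.5, 17.3, 25.9, 15.4, 33.9 and 16.4 in casein, and 11.9, 8.92, 5.25, 7.53, 9.22 and 8.14 in casein + GLP-2 steers. All 6 casein + GLP-2 steers lay below all 6 casein steers (0.504% of genes), with mean levels of 8.49 ± 2.18 (SD) and 22.6 ± 7.37 CPM. GLP-2 and control steers overlapped, at 14.1 ± 1.42 and 15.9 ± 4.08 CPM.

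**Figure D5:**
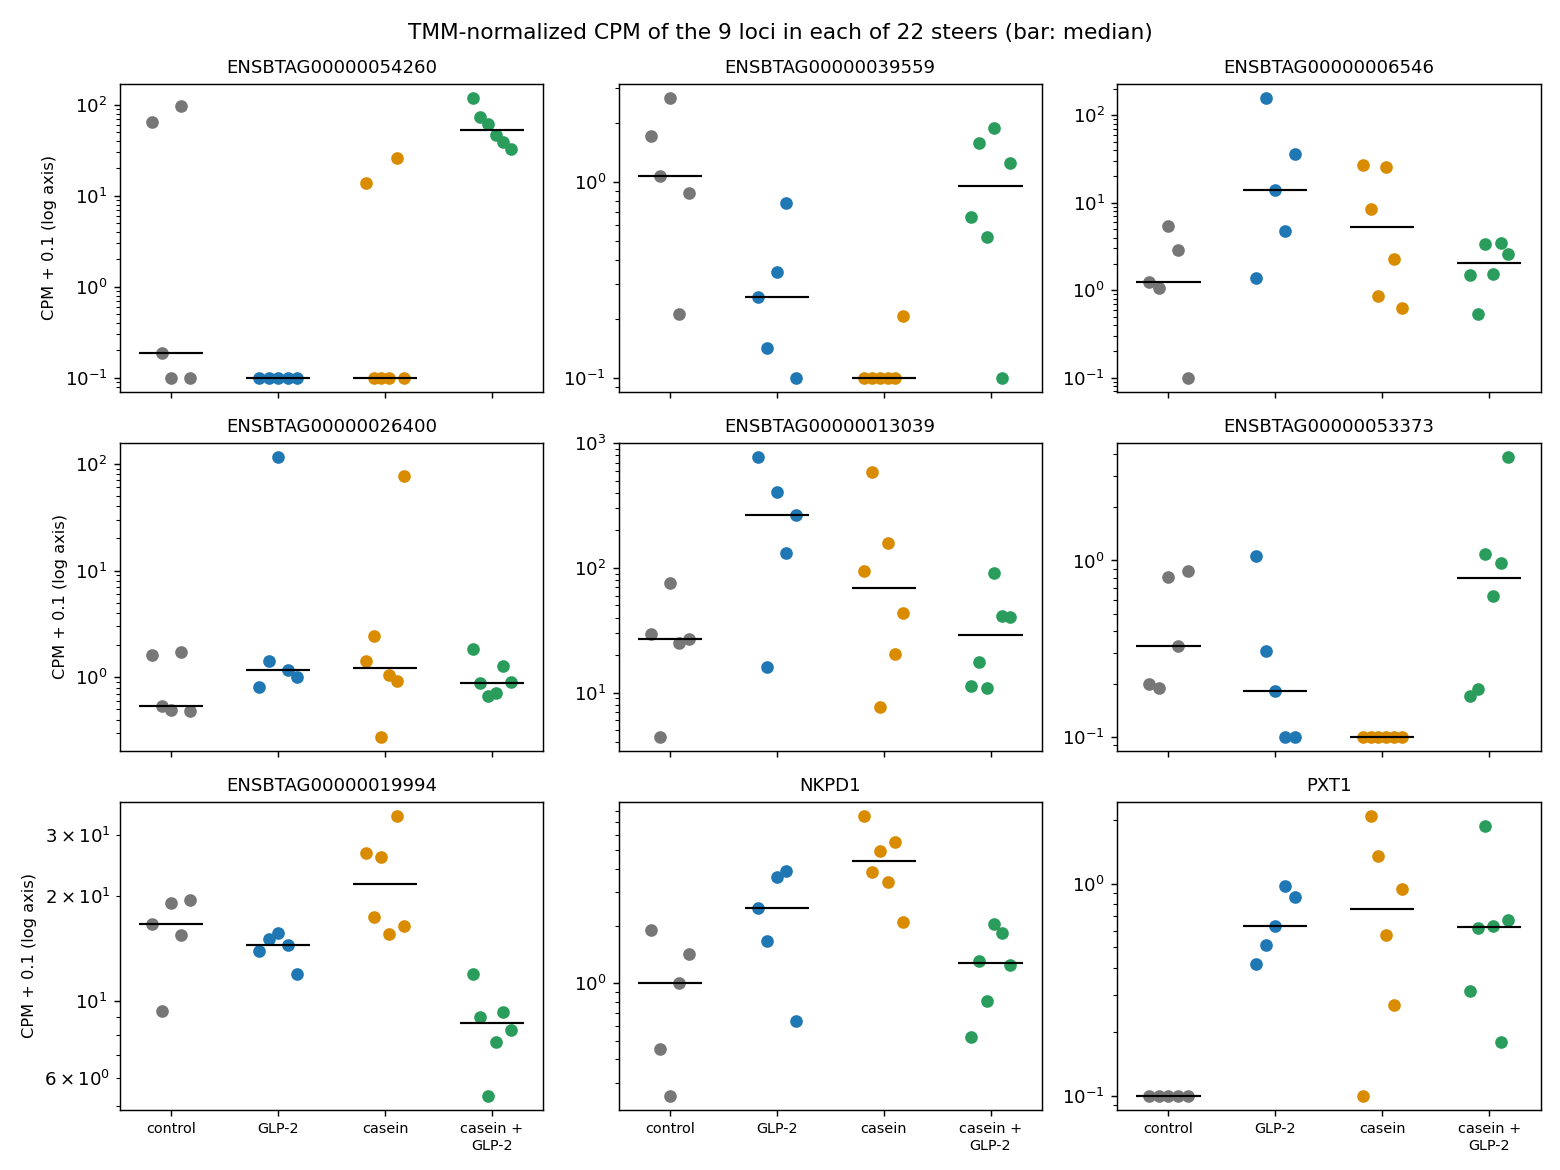
CPM (TMM-normalized, plus 0.1, log axis) of the 9 loci in the 22 steers by treatment, 1 point per steer and a bar at the median. The casein + GLP-2 steers sit above all GLP-2 and casein steers for ENSBTAG00000054260 and below all casein steers for ENSBTAG00000019994 and NKPD1.

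The main effects were tested on all genes and are other contrasts than the one that chose the loci, though from the same counts. GLP-2 against BSA could be tested for 5 of the 9 loci after the filter, and 1 was called, beside 13.5% of 13928 genes. This was ENSBTAG00000019994, which was lower with GLP-2 by -0.81 ± 0.21 (SE, log2 scale, edgeR, adjusted p = 0.0229). CPM averaged 11.03 ± 3.42 (SD, n = 11) with GLP-2 and 19.5 ± 6.77 (n = 11) with BSA, with ranges of 5.25 to 15.5 and 9.26 to 33.9. Because the locus was selected on its treatment pattern in the same counts, this p is not independent support. The difference lay between the casein + GLP-2 and casein steers (-1.37 ± 0.22), while GLP-2 and control steers differed by -0.13 ± 0.24. With the replicate block in the fit, the adjusted p in edgeR was 0.0482, while the number of genes called fell from 1881 to 689. The other 4 did not pass: ENSBTAG00000006546 (1.68 ± 0.97, adjusted p = 0.218), NKPD1 (-0.72 ± 0.50, 0.302), ENSBTAG00000013039 (0.73 ± 0.80, 0.530) and ENSBTAG00000026400 (0.57 ± 1.15, 0.745). The value of the pseudogene ENSBTAG00000026400 changed with single steers, and it turned to -2.95 without GLP-2 replicate 4 (edgeR, adjusted p = 0.0394) and rose to 3.52 without casein replicate 6 (adjusted p = 0.0249). Each of these calls rests on the 1 high steer left in, at a locus selected on the same counts, so neither p is independent support. Without GLP-2 replicate 3, the value of ENSBTAG00000006546 was 0.014. That of ENSBTAG00000013039 ran from 0.030 without GLP-2 replicate 1 to 1.74 without casein replicate 2, and that of NKPD1 was -0.47 without casein replicate 1. The remaining loci were tested only without the filter, and ENSBTAG00000053373, ENSBTAG00000054260, PXT1 and ENSBTAG00000039559 then had adjusted p of 0.193, 0.661, 0.715 and 0.992.

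The level of ENSBTAG00000019994 moved with markers of several cell types. Over the 22 steers its log2 CPM had a Pearson r of 0.71 with the score of 6 plasma cell markers (Spearman 0.73). For smooth muscle r was 0.65 (Spearman 0.59), for B cell follicle 0.58 (0.74), for villus enterocyte -0.63 (-0.73) and for T cell -0.60 (-0.54). Without the 2 steers farthest from the median of the score, these 5 Pearson values were 0.67, 0.71, 0.52, -0.60 and -0.52, and with the treatment means removed they were 0.69, 0.61, 0.63, -0.50 and -0.66. Proliferation markers had an r of 0.54, those of goblet cells -0.32 and those of macrophages -0.02. No p is given for these 8 relations, since the locus was selected in the same counts and the treatments differed in both the locus and the markers. With GLP-2, 8 of 8 B cell follicle markers tested (such as CR2 and MS4A1), 3 of 6 plasma cell markers (POU2AF1, DERL3 and TNFRSF17) and 3 of 6 proliferation markers (CCNB1, BIRC5 and AURKB) were lower than with BSA, beside 8.37% of all genes. Higher with GLP-2 were 2 of 12 enterocyte markers (LCT and SLC5A1) and 1 of 7 macrophage markers (MRC1), beside 5.13% of all genes. In edgeR, 0 of 7 smooth muscle, 7 T cell and 4 goblet cell markers were called. An unadjusted p of 0.05 or less was found for 3, 0 and 1 of them, beside 4817 of 13928 genes. Summed CPM of the plasma cell list was 281.6 to 5645 with BSA and 193.4 to 2080 with GLP-2. Of the markers with at least 1 count, none was at 0 in a whole treatment. MUC2 and FCGBP, of 6 goblet cell markers looked for, were not found with counts under these names and were left out. The part of these cell types in the lower level of ENSBTAG00000019994 was not tested. The most similar gene was the unnamed ENSBTAG00000032114 on chromosome 5 (Pearson r = 0.93, Spearman 0.88), followed by GRWD1, a ribosome assembly factor (0.83). CARF itself ran opposite, with an r of -0.61 (Spearman -0.69). The library kit kept strand, and the strand setting of the counting was not given in the sources used here.

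Casein against water could be tested for 6 of the 9 loci and called 0 of them, beside 0.0% of 14096 genes and 3.36% with an unadjusted p of 0.05 or less. The fitted differences were 1.09 ± 1.36 (SE, log2) for ENSBTAG00000054260, 0.80 ± 0.51 for NKPD1, 0.045 ± 0.27 for ENSBTAG00000019994, -0.79 ± 1.16 for ENSBTAG00000026400, -0.87 ± 0.80 for ENSBTAG00000013039 and -1.83 ± 0.95 for ENSBTAG00000006546. Without GLP-2 replicate 3, the value of ENSBTAG00000006546 was -0.20. That of ENSBTAG00000013039 ran from -1.84 without casein replicate 2 to -0.18 without GLP-2 replicate 1, and that of ENSBTAG00000054260 was 2.25 without control replicate 4. With all steers, each had an adjusted p of at least 0.994 in edgeR, and 0 of the 6 reached an unadjusted p of 0.05. A DESeq2 Wald test called 5 genes.

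With the treatment means removed, the Pearson r of their 36 pairs ran from -0.54 to 0.41. Casein replicates 1, 3 and 5 were the 3 highest steers for both ENSBTAG00000019994 and NKPD1. GLP-2 replicate 4 was highest for ENSBTAG00000026400 and among the 3 highest for ENSBTAG00000013039, and casein replicate 2 was highest for PXT1 and among the 3 highest for ENSBTAG00000013039. GLP-2 replicate 3 was highest for ENSBTAG00000006546. ENSBTAG00000054260 shared its profile most with the iron exporter SLC40A1 (Pearson r = 0.69, Spearman 0.61) and the interferon-induced GTPase GBP2 (0.68, Spearman 0.75), and both values were 0.41 and 0.36 after removal of treatment means. Of 18 interferon gamma response genes tested, 0 were called between GLP-2 and BSA by edgeR, beside 13.5% of genes. An unadjusted p of 0.05 or less was found for 3 of them, beside 4817 of 13928 genes. Their median fitted interaction was 0.53 on the log2 scale, beside -0.029 for all genes. That value is a description, since the list holds GBP2, a leading gene of the interaction.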

How the data were processed

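RNA-seq libraries of jejunal mucosa from 22 steers were used. The reads had been aligned by the authors to ARS-UCD1.2 with HISAT2 2.0.5 and assigned to genes with featureCounts 1.5.0-p3, and the deposited counts are whole numbers without normalization. The deposited FPKM, made by the authors, differed from length- and depth-scaled counts by a constant per steer whose origin is not stated. This constant lay near the DESeq2 size factor relative to depth. The 2 values were 0.730 and 0.724 in casein + GLP-2 replicate 1 and 1.253 and 1.247 in casein replicate 3. FPKM served for levels between genes and as an alternative.

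Counts were analyzed in R 4.3.3 with edgeR 4.0.16 (filterByExpr with minimum count 10, TMM, quasi-likelihood test, Benjamini-Hochberg over all genes tested, threshold 0.05). DESeq2 1.42.0 and limma 3.58.1 on log2(FPKM + 1) or log2(FPKM + 0.1) were alternatives, as were other size factors, other filters, the replicate block and leaving out each steer. Main effects pooled the other factor. CPM are TMM-normalized, log2 CPM used a prior count of 2, and the SE of a difference came from the SD pooled over treatments. Library totals of 8809666 to 28447810 counts set the precision of low counts, and bounds cover the counting error of the group at 0 only. Levels of copies within a gene family are uncertain. Procedures were tested on simulated data.

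The members and lists were chosen with earlier results of these data known. Named genes are the 9 loci, their neighbors within 100 kb, the 2 most correlated genes of each among genes with at least 10 counts in at least 5 steers, and listed genes where 5 or fewer were counted. Some genes that this rule names are not reported here. The CYP3A, GSTA and PLA2G2 families, SOCS1 and other genes beside the ranks were chosen after values were seen. Lists held peroxisome, KAP family and interferon gamma response genes and markers of 8 cell classes (villus enterocyte, goblet, B cell follicle, plasma, T, macrophage, smooth muscle, proliferation). After removal of treatment means, steers sharing a block correlated by 0.0331 on average (30 pairs) and the remaining 151 pairs by -0.00641. Of the 30 pairs, 13 were above 0.1. The study grouped steers by body weight into blocks and randomized the treatments within each, and the replicate number of a steer is its block. Here the block entered only an alternative fit, so the main tests and SEs leave this part of the design out. A second-block GLP-2 steer was not analyzed here. The labels give each steer as a separate animal.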

Additional observations from a re-analysis of the deposited data

Results flagged for a closer look

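For 3 groups of steers, the highest steer lay farther from the nearest other steer than the 95% limit of Dixon's test allows, as a share of the range of log2 CPM. Chance gives such a gap in about 1 of 20 groups, but that rate does not hold for these 33 groups with any spread, because their loci were selected on the same counts and a single high steer adds to an interaction value. The gaps are given as a description. For ENSBTAG00000026400, GLP-2 replicate 4 stood at 2836 counts against 9 to 32 in the other GLP-2 steers (gap of 0.891 of the range, limit 0.71). In the same pseudogene casein replicate 6 stood at 726 counts against 3 to 21 (0.627, limit 0.625). For ENSBTAG00000039559, casein replicate 6 was the only casein steer above 0, with 1 count (1.0, limit 0.625), a gap of a single read that any count above 0 would set at 1.0.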

How the results depend on the processing

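The number of genes called between GLP-2 and BSA was 1881 and moved to 2999 with the DESeq2 Wald test, 689 with the replicate block and 3256 without GLP-2 replicate 4 and casein replicate 6, a choice made after seeing the data. It ran from 634 (without casein + GLP-2 replicate 3) to 3516 (without control replicate 2) when single steers were left out. It fell by over 1.5 times also without casein + GLP-2 replicate 1 or 2, casein replicate 1 or 3, control replicate 1, 3 or 5, or GLP-2 replicate 3 or 6, and rose as much without casein replicate 6. DESeq2's Wald test called 2 genes for the interaction, ENSBTAG00000054260 and ENSBTAG00000039559, whose counts are at or near 0 in a whole treatment, and 5 for casein against water, where edgeR called 0 with each steer left out. Genes on in some steers and off in others numbered 2991 with on at 1 CPM and 865 with at least 3 steers on and 3 off, and 1440 to 1625 without single steers. The 2 loci among them became 3 with on at 1 CPM, where PXT1 joined, and 1 with at least 3 on and 3 off, ENSBTAG00000054260. Fitted interactions of loci with a treatment at 0 depend on the method and ran from 6.31 to 29.9 for ENSBTAG00000054260, 1.25 to 7.92 for ENSBTAG00000053373 and -6.61 to -1.37 for PXT1. That of ENSBTAG00000026400 was -4.01 without GLP-2 replicate 4. ENSBTAG00000019994 was called between GLP-2 and BSA in each of 31 alternatives, with adjusted p from 0.00335 to 0.0482 in edgeR, DESeq2 or limma. This locus was selected on the same counts, so its repeated calls are no independent support. For casein against water its difference turned to -0.14 and -0.13 in limma on log2(FPKM + 0.1) and log2(FPKM + 1), and to between -0.12 and -0.00091 without casein replicate 1 (-0.062), 3 (-0.051) or 5, control replicate 2 (-0.015) or GLP-2 replicate 6, within a range of -0.12 to 0.12 over single steers left out. ENSBTAG00000006546 turned to -0.059 between GLP-2 and BSA in the DESeq2 Wald test. ENSBTAG00000026400 turned to -2.95 between GLP-2 and BSA and to 2.93 between casein and water without GLP-2 replicate 4, where the former was called (edgeR, adjusted p = 0.0394). Over single steers left out, its casein difference ran from -3.59 to 2.93. It turned to -0.037 and 0.13 without that steer and casein replicate 6, and to 0.091 between casein and water in the DESeq2 Wald test. Without casein replicate 6 the locus was called between GLP-2 and BSA at 3.52 (edgeR, adjusted p = 0.0249). Its calls with 1 steer left out rest on the other high steer and are no independent support. The cause of these shifts was not tested. Leaving out the 2 steers that carry the counts of ENSBTAG00000026400 was chosen after seeing the data and is no such test. The replicate block changed no call of the 9 loci. Low counts limit ENSBTAG00000039559, ENSBTAG00000053373 and PXT1, whose differences rest on a few reads per steer.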
